A study of Mus musculus with 53 samples.

Results

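The Mef2 family was examined in the mouse cerebellum, as the 4 genes Mef2a, Mef2b, Mef2c and Mef2d. They were found by symbol among 55573 genes of the postnatal day 2 (P2) bulk RNA-seq tables and among 57010 genes of the postnatal day 7 (P7) single-cell tables. Their identifiers are ENSMUSG00000030557 (Mef2a), ENSMUSG00000079033 (Mef2b), ENSMUSG00000005583 (Mef2c) and ENSMUSG00000001419 (Mef2d), and all are listed as protein-coding. Mutant mice carried Atoh1Cre together with homozygous floxed Insm1, or together with homozygous floxed Tead1 and Tead2. Controls of each kind carried the same floxed alleles without Cre. Atoh1Cre acts in cells that express Atoh1 or descend from such cells, mainly the cerebellar granule lineage, so other cell types keep the floxed genes. At P2, total RNA of cerebella from individual pups gave 4 Insm1 control, 4 Insm1 mutant, 3 Tead1/2 control and 4 Tead1/2 mutant libraries. At P7, fixed cells of single cerebella were counted by a split-pool method in 10 libraries, 2 controls and 3 mutants of each allele. Library 1 of each P7 group came from all lobules, and the others were dissected without lobules IX and X. The series title names repression of muscle fate as the question. The levels of the Mef2 genes bear on it because they serve both neurons and muscle.

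MEF2 proteins are MADS-box transcription factors that bind an A/T-rich DNA site. In skeletal muscle they act with the myogenic bHLH factors, such as MyoD and myogenin, on genes of the contractile apparatus. In neurons they respond to activity and take part in survival and in the shaping of synapses, and Mef2a and Mef2d are the members best known from cerebellar granule neurons. Class IIa histone deacetylases and Cabin1 hold MEF2 proteins inactive. Calcium signals through calcineurin and CaM kinases, and the p38 and ERK5 MAP kinases, release or activate them.

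Promoters of Mef2a, Mef2c and Mef2d are shown because MEF2 genes are known to be controlled by MEF2 proteins themselves and because Tead factors, deleted in one of the mutants, recognise CATTCC. All 4 members were matched by symbol in RefSeq on GRCm38.p6, with 6 promoters of 300 bases each (250 before to 50 after the transcript start). Capitals mark the matches found by a search of both strands for the MEF2 consensus site and for CATTCC, which reads GGAATG on the opposite strand. The Mef2a promoter (chr7:67372809-67373108, minus strand) holds a MEF2 site that begins 2 bases before the start. The first promoter of Mef2c (chr13:83503784-83504083, plus strand) holds GGAATG, which begins 75 bases before the start. No match lies in the windows of the Mef2c starts 2 and 3 (chr13:83523406-83523705 and chr13:83573357-83573656, plus strand), of Mef2d (chr3:88142122-88142421, plus strand) or of Mef2b, the member with the lowest levels, whose promoter is not printed. Srpk3 (chrX:73774155-73774454, plus strand), a muscle kinase gene known as a MEF2 target, is shown for comparison with a site that begins 67 bases before its start.
Mef2a: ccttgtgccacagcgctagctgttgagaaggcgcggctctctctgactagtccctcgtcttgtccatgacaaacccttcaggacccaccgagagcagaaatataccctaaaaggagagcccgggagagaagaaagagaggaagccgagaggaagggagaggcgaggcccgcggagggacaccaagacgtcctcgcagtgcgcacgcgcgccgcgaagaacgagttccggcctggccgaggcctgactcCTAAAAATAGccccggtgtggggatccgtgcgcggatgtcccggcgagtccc
Mef2c, start 1: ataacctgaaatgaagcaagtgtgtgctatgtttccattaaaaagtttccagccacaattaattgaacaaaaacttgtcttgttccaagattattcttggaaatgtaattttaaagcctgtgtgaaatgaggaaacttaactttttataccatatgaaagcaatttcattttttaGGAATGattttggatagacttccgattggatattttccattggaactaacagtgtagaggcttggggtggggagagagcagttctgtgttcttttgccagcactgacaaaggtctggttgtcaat
Mef2c, start 2: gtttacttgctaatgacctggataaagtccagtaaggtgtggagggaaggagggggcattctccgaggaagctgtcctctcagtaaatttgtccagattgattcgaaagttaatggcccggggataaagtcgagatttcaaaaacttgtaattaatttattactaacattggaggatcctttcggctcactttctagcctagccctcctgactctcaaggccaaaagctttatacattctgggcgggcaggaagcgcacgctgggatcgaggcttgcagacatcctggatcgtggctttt
Mef2c, start 3: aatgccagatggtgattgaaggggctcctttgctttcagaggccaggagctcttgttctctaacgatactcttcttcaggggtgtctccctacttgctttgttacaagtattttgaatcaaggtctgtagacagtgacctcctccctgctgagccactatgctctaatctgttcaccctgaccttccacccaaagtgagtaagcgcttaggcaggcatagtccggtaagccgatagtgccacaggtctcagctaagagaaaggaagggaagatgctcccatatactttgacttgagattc
Mef2d: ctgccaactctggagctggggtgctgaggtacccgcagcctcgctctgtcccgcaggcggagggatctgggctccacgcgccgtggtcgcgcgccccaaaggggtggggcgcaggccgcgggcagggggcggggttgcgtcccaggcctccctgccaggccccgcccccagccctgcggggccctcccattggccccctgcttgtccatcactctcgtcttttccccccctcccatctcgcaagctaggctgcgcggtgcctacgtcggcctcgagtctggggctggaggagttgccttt
Srpk3: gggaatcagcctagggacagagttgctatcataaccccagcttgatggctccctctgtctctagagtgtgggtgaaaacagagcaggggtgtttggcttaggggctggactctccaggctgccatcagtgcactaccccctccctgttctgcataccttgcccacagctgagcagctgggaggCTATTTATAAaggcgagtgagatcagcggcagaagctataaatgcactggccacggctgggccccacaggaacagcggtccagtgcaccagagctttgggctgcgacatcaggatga
Over all 32851 promoters of 27025 genes in the same table, 3.19% held a MEF2 site, 14.7% held CATTCC on either strand and 72.3% held the E-box letters CANNTG, to which myogenic bHLH factors bind. Of the 6 Mef2 promoters, 1 held the MEF2 site, 1 held CATTCC and 3 held CANNTG. A match is a description of letters, and no binding data were analysed here.

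The deleted genes were examined first. Insm1 stood at 30.8 to 72.0 CPM in P2 Insm1 controls and 8.45 to 16.1 CPM in Insm1 mutants, and at P7 at 55.6 to 56.0 and 5.73 to 14.5 CPM. Tead2 stood at 22.4 to 25.8 CPM in P2 Tead1/2 controls and 17.4 to 19.5 CPM in Tead1/2 mutants 1 to 3, but at 25.9 CPM in the library labelled Tead1/2 mutant 4, whose muscle genes were at control levels too. That library goes against its label, so the P2 Tead1/2 tests of the members and lists are given with and without it. At P7, Tead2 stood at 29.6 to 30.5 CPM in Tead1/2 controls and 7.71 to 9.05 in mutants, while Tead1 was not lower (610 to 622 against 1177 to 1376). The counts do not tell transcripts with and without the deleted part apart, so Tead1 checks nothing. P2 libraries held 28066643 to 64518751 expected counts. At P7, 76640 cells were kept, with 4587 to 10281 in each library and median depths of 6656 to 9793 UMIs (counted molecules), and no barcode was shared between libraries. They fell into 33 clusters, made without the 4 Mef2 genes. By fixed markers 29 clusters were named, and 4 clusters with 7991 cells stayed unnamed. Unnamed cells made up 13.9% to 21.7% of control and 2.35% to 7.15% of mutant libraries. Most lay in clusters 7 and 14, mainly control cells with most markers from the granule progenitor class and median depths of 17998 and 19460 UMIs. Comparisons within classes thus leave out a larger part of the control cells. Of 33966 control cells 11 were skeletal muscle-like, against 9827 mutant cells, which made up 15.6% to 33.1% of each mutant library. The control number depends on the doublet rule. With Scrublet's own threshold 208 of 21770 control cells were skeletal muscle-like, 192 of them in Tead1/2 control 2 (2.99% of that library), against 5691 mutant cells. That threshold was uneven. It marked 0 cells in Tead1/2 control 2 and in Insm1 mutant 1 and 1 cell in Tead1/2 mutant 1, but 36.4% to 55.3% in each other library. All 192 cells lay in 1 cluster with a median of 31492 UMIs, filled mainly by these 3 libraries. The main analysis had 0 skeletal muscle-like cells in Tead1/2 control 2.

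At P2, Mef2c was the member that differed in bulk RNA. In Insm1 controls Mef2c stood at 55.6, 55.9, 59.3 and 56.0 CPM (the counts-per-million scale, adjusted by TMM library factors), and in Insm1 mutants at 72.2, 73.8, 69.6 and 76.4 CPM. All 4 mutants were above all 4 controls. The log2 change of Mef2c was 0.37 (SE 0.06), which edgeR called (adjusted p, FDR, 0.0175). In this comparison 0.689% of 19582 genes tested were called at an FDR under 0.05 (94 higher and 41 lower). The call of Mef2c was lost without Insm1 control 1, 2 or 4 or Insm1 mutant 2 or 4, each left out alone (edgeR FDR 0.0574 to 0.0758, log2 change 0.35 to 0.36). The share of a cell type and the RNA per cell cannot be told apart in whole tissue.

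Mef2c stood in Tead1/2 controls at 67.7, 62.9 and 62.0 CPM, and in Tead1/2 mutants 1, 2 and 3 at 81.5, 73.0 and 96.2 CPM. Mef2c was 57.3 CPM, under all controls, in the library labelled Tead1/2 mutant 4. The log2 change of Mef2c was 0.26 (SE 0.14, edgeR FDR 0.313). Without the low-count filter edgeR did call Mef2c here, with the values given under the processing choices. In this comparison 0% of 20247 genes were called by edgeR, 4052 had an unadjusted p under 0.05, and DESeq2 called 1005. With that library left out, edgeR called 3.19% of 20234 genes, and Mef2c had a log2 change of 0.38 (SE 0.09, edgeR FDR 0.0611). The difference between the Tead1/2 and the Insm1 effect on Mef2c was -0.10 (SE 0.16, edgeR FDR 0.950), and 0.015 (SE 0.11, edgeR FDR 0.992) without that library. For this difference 0% of 20837 genes were called by edgeR, 1435 had an unadjusted p under 0.05, and DESeq2 called 14.

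Mef2a and Mef2d, the members best known from granule neurons, did not pass the test at P2. Mef2a stood at 105, 104, 98.6 and 109 CPM in Insm1 controls and at 92.1, 106, 111 and 115 CPM in Insm1 mutants, which overlap (log2 change 0.03, SE 0.08, edgeR FDR 0.937). It stood at 89.1, 92.5 and 87.4 CPM in Tead1/2 controls and in Tead1/2 mutants 1, 2 and 3 at 84.1, 96.3 and 105 CPM, with 83.6 CPM in the library labelled mutant 4. The log2 change of Mef2a was 0.04 (SE 0.08, edgeR FDR 0.818) with that library and 0.09 (SE 0.08, edgeR FDR 0.578) without it. Mef2d stood at 53.5, 44.8, 38.4 and 54.7 CPM in Insm1 controls and at 26.5, 47.3, 40.0 and 47.4 CPM in Insm1 mutants. These groups overlap, with a log2 change of -0.25 (SE 0.18, edgeR FDR 0.710). Mef2d stood in Tead1/2 controls at 33.9, 34.0 and 26.01 CPM and in Tead1/2 mutants 1, 2 and 3 at 28.5, 30.9 and 28.6 CPM, with 29.3 CPM in the library labelled mutant 4. The log2 change of Mef2d was -0.10 with that library (SE 0.09, edgeR FDR 0.562) and without it (SE 0.10, edgeR FDR 0.607). Mef2b had 3 to 12 expected counts in the Insm1 libraries and 0 to 6 in the Tead1/2 libraries. It was under the low-count filter in both tables and was not tested at P2.

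**Figure D1:**
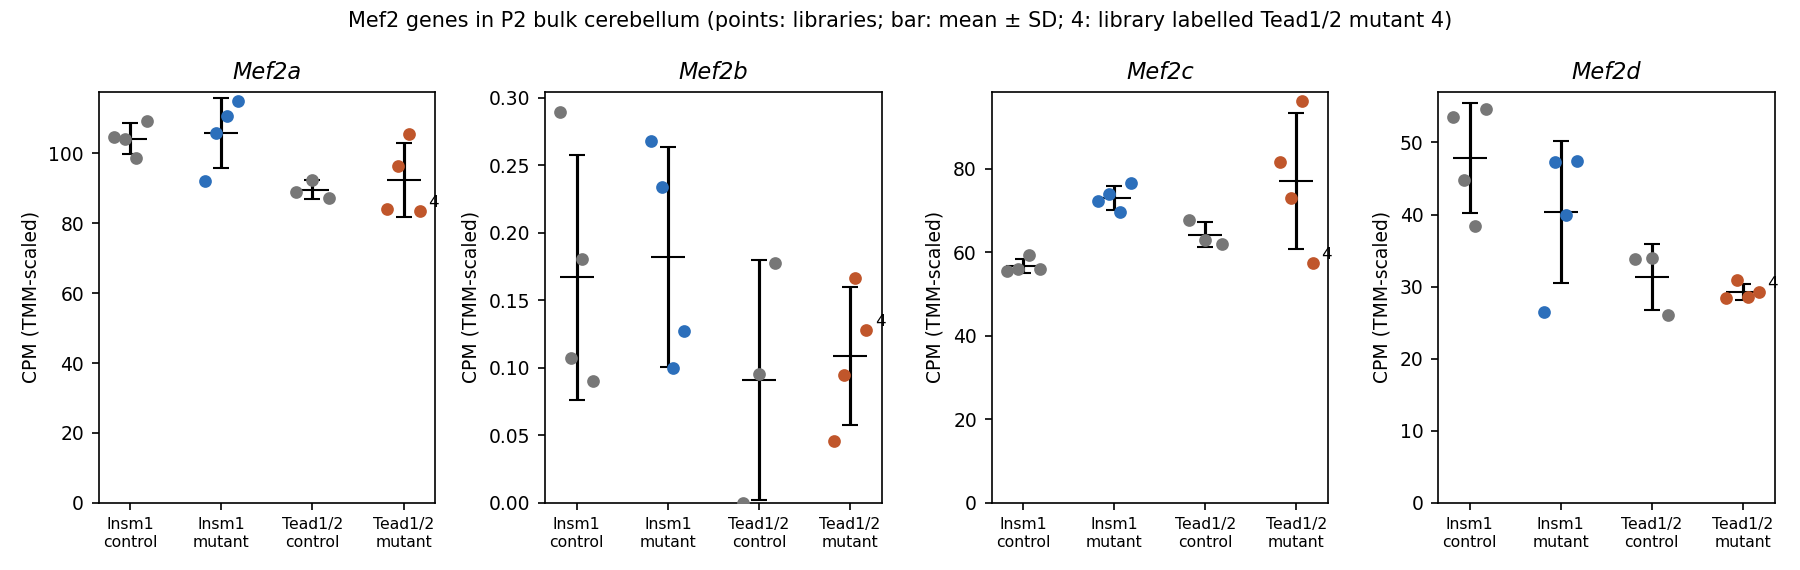
Level of each Mef2 gene in the P2 bulk libraries, in CPM scaled by TMM (y axis, linear from 0), by group (x axis); points are libraries, bars the mean and SD, and "4" marks the library labelled Tead1/2 mutant 4. In the Mef2c panel the 4 Insm1 mutants lie between 69.6 and 76.4 CPM, above the 4 Insm1 controls, and the point marked 4 lies at 57.3 CPM.

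Of the muscle partners and targets of MEF2, Myog and 5 other targets rose in Insm1 mutants at P2, and edgeR with its low-count filter called none in the Tead1/2 comparison with all 4 mutants. Myog, which encodes the bHLH factor myogenin, stood at 0.483, 3.92, 0 and 0.0899 CPM in Insm1 controls and at 34.8, 26.5, 18.8 and 24.8 CPM in Insm1 mutants (log2 change 4.52, SE 0.75, edgeR FDR 0.0246). Myog stood in Tead1/2 controls at 0.199, 0.238 and 0.320 CPM. It stood at 29.0, 36.8 and 34.7 CPM in Tead1/2 mutants 1, 2 and 3 and at 0.415 CPM in the library labelled Tead1/2 mutant 4. Its Tead1/2 log2 change was 6.69 (SE 1.27, edgeR FDR 0.0898) with that library and 7.08 (SE 0.17, edgeR FDR 4.52e-08) without it, and for Myod1 the change was 5.48 (SE 1.01, edgeR FDR 0.0898) and 5.85 (SE 0.23, edgeR FDR 1.61e-06). The Insm1 groups do not overlap for Myog, and mutant 4 is the only Tead1/2 mutant near its controls. Of 15 listed muscle targets of MEF2, 11 were tested in the Insm1 comparison. By the test 6 of them rose and 0 fell, where edgeR called 0.689% of all genes, and by sign 9 were higher and 2 lower. Their median log2 change was 1.42, against 0.01 over all genes tested. Smyd1, a muscle methyltransferase gene and direct MEF2C target, stood at 0.509 to 1.02 CPM in Insm1 controls and at 1.83 to 3.33 CPM in Insm1 mutants (log2 change 1.93, SE 0.25, edgeR FDR 0.00688). Hrc, a calcium-binding protein gene of the sarcoplasmic reticulum, had a log2 change of 2.67 (SE 0.34, edgeR FDR 0.00605). Lmod3, which encodes a leiomodin of muscle thin filaments, had 0 to 1 expected counts in Insm1 controls and 11 to 23 in Insm1 mutants (edgeR FDR 0.00259). Ckm, the muscle creatine kinase gene, had 0 to 1 and 13 to 54 (edgeR FDR 0.00787). No fold is given for Lmod3 and Ckm at these control counts. Such genes passed the low-count filter only through the mutants and could hardly fall. The counts by direction and the median of the targets are therefore partly set by the filter. Myod1 did not pass in Insm1 mutants (edgeR FDR 0.0748). In the Tead1/2 comparison edgeR called none of 10 tested muscle targets (6 had an unadjusted p under 0.05, all higher, against 20% of all genes), and with mutant 4 left out edgeR called 5 of 10, all higher, against 3.19% of all genes, with Smyd1 at a log2 change of 2.08 (SE 0.22, edgeR FDR 0.00107). Its muscle genes at control levels were among the reasons to leave mutant 4 out. The calls of muscle genes without it, Myog and Myod1 among them, are therefore not independent of that choice.

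None of the 12 neuronal targets, 20 calcium and MAP kinase inputs, 5 repressors or 6 coactivators of MEF2 was called by edgeR at P2, in either allele, with or without the library labelled Tead1/2 mutant 4. At an unadjusted p under 0.05, 0 neuronal targets, 1 input, 0 repressors and 2 coactivators passed in the Insm1 comparison, and 3, 4, 1 and 3 in the Tead1/2 comparison. Without the library labelled mutant 4 the Tead1/2 numbers were 4, 3, 1 and 3. Over all genes 9%, 20% and, without that library, 20.5% passed, so these counts are no result about the lists. In the Insm1 comparison the median log2 changes were 0.01 for the neuronal targets, -0.06 for the inputs, -0.15 for the repressors and -0.24 for the coactivators. The skeletal muscle markers moved with Mef2c. The 17 fixed markers summed to 27.9 to 55.2 CPM in Insm1 controls and 183 to 291 CPM in Insm1 mutants. They summed to 32.0 to 35.3 CPM in Tead1/2 controls, 190 to 250 CPM in Tead1/2 mutants 1 to 3 and 29.0 CPM in the library labelled Tead1/2 mutant 4. The part of muscle-like cells in the P2 value of Mef2c was not tested.

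At P7 all 4 members were higher in the mutants when all kept cells of a library were summed. P7 levels are CPM over the UMIs summed, without TMM factors. Mef2c stood at 83.4 and 109 CPM in Insm1 controls and at 584, 619 and 629 in Insm1 mutants (log2 change 2.62, SE 0.15, edgeR FDR 9.72e-07). It stood in Tead1/2 controls at 107 and 98.2 CPM and in Tead1/2 mutants at 1239, 1291 and 961 (log2 change 3.42, SE 0.16, edgeR FDR 1.21e-07). Every mutant was far above every control in either allele.

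Mef2a stood at 254 and 270 CPM in Insm1 controls and at 403, 396 and 398 in Insm1 mutants (log2 change 0.56, SE 0.11, edgeR FDR 0.00304). In Tead1/2 controls it stood at 220 and 227 CPM and in Tead1/2 mutants at 546, 507 and 419 (log2 change 1.05, SE 0.11, edgeR FDR 2.98e-05). Mef2d rose by 0.46 (SE 0.07, edgeR FDR 0.000952) in Insm1 mutants and by 0.36 (SE 0.07, edgeR FDR 0.00252) in Tead1/2 mutants on the log2 scale. Mef2b, at 2.66 to 2.88 CPM in controls and 3.41 to 4.77 in mutants, rose by 0.29 (SE 0.09, edgeR FDR 0.0297) and 0.60 (SE 0.09, edgeR FDR 0.000346). No mutant library overlapped its controls for any of the 4 members, but the share of all genes without overlap was not counted. The background is large here: edgeR called 33.4% of 24182 genes in Insm1 mutants and 48.5% in Tead1/2 mutants. The summed muscle markers stood at 66.3 to 90.6 CPM in controls, 6129 to 7494 in Insm1 mutants and 14556 to 23091 in Tead1/2 mutants.

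The order of the cell classes differed between members. In the 4 control libraries Mef2c had its highest median in microglia-like cells (790 CPM, 702 to 1182), then mural-like cells (593, 1 library), endothelium-like cells (277, 202 to 385) and Purkinje-like cells (163, 144 to 183, 2 libraries). Granule progenitor-like cells followed at 111 (107 to 125), meningeal fibroblast-like, astroglia-like, oligodendrocyte lineage-like and ependyma and choroid-like cells had medians of 61.6 to 71.1, and granule neuron-like cells (33.7, 28.9 to 34.9) and GABAergic interneuron-like cells (24.1, 19.1 to 26.7) were lowest. The ranges of the last pair of classes do not overlap, and neither do those of granule progenitor-like and granule neuron-like cells. In mutants, skeletal muscle-like cells had the highest median of Mef2c of the named classes (1552, 1124 to 2309). Microglia-like cells came next (1109, 848 to 2183), and these ranges overlap.

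Mef2a had its highest control medians in microglia-like (627, 582 to 779) and endothelium-like cells (581, 469 to 807), which overlap, and stood at 255 (218 to 278) in granule neuron-like and 214 (195 to 236) in granule progenitor-like cells. In mutants, microglia-like (781, 676 to 1432), endothelium-like (637, 580 to 827) and skeletal muscle-like cells (590, 497 to 810) overlapped for Mef2a. Mef2d varied least over classes, with control medians from 67.5 in ependyma and choroid-like cells to 109 in microglia-like cells. In mutants it was highest in skeletal muscle-like cells (156, 136 to 178), whose range overlaps that of microglia-like cells (127, 113 to 165). Mef2b had control medians of 2.13 to 5.13 CPM in the classes with more than 1 library, and no order was read from these.

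**Figure D2:**
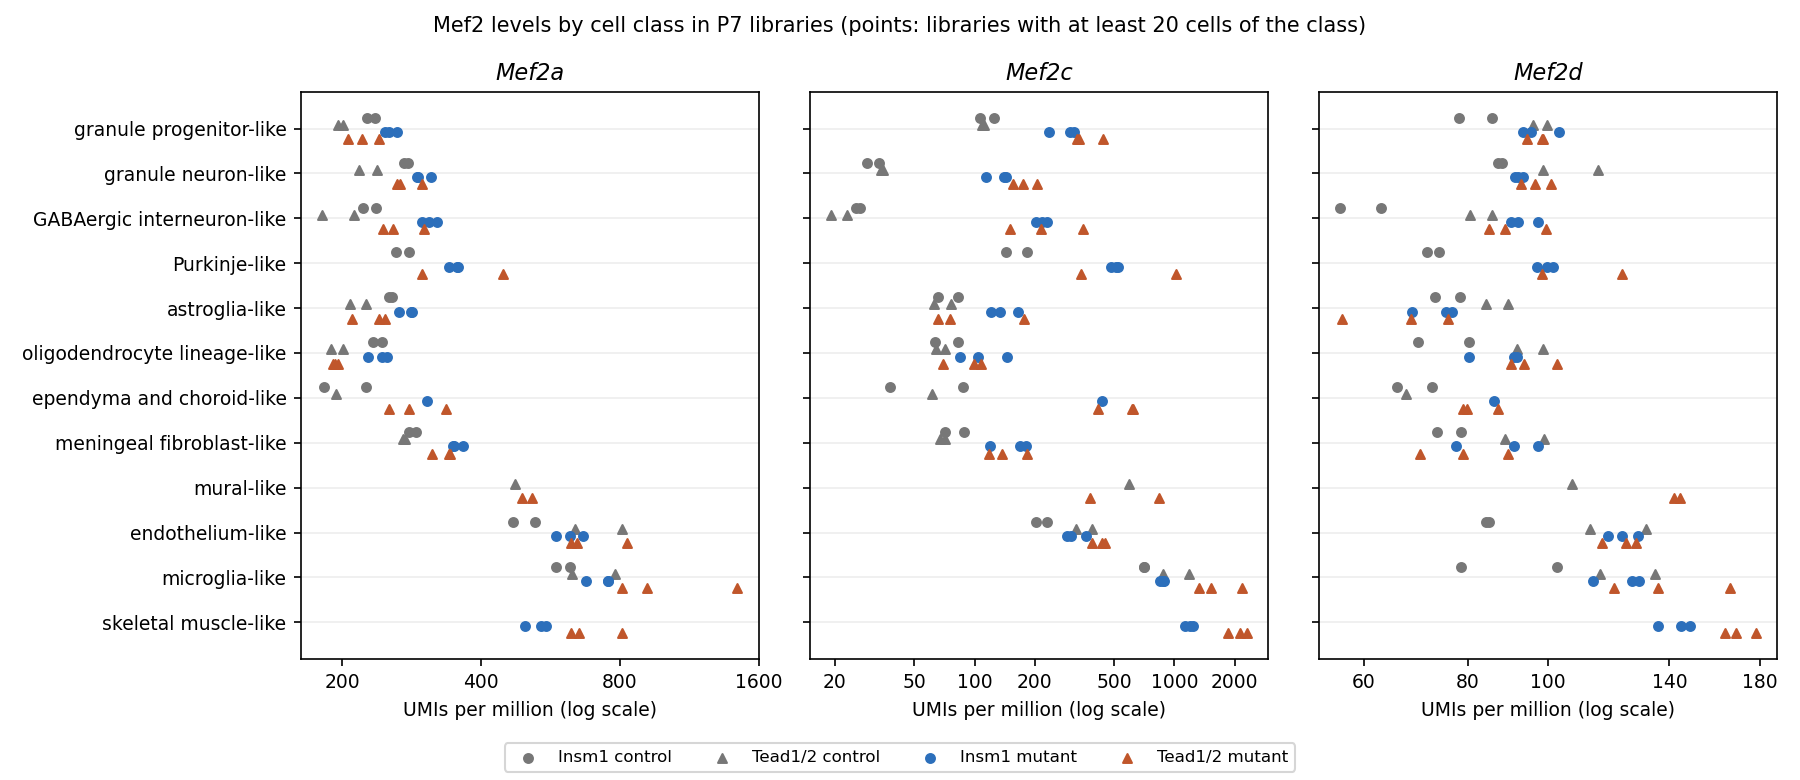
Levels of Mef2a, Mef2c and Mef2d in CPM (x axes, log scale) for each cell class (y axis) at P7; each point is a library with at least 20 cells of the class, with the 4 genotype groups by colour and shape. Skeletal muscle-like cells, which reach 20 cells only in mutants, have Mef2c at 1124 to 2309, and microglia-like cells of controls have it at 702 to 1182.

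Along the granule lineage of the 4 controls, Mef2c went the opposite way to the other members. Between granule neuron-like and granule progenitor-like cells of the same libraries, the log2 difference of Mef2c was -1.47 (SE 0.11, edgeR FDR 2.98e-10). Mef2a was higher in the neuron-like cells by 0.54 (SE 0.04, edgeR FDR 3.66e-10), Mef2d by 0.43 (SE 0.04, edgeR FDR 1.86e-08) and Mef2b by 0.72 (SE 0.18, edgeR FDR 0.00131). These fits include TMM factors, which differ between the classes, and the CPM levels lay closer together. Medians in neuron-like and progenitor-like cells were 255 and 214 CPM for Mef2a and 93.3 and 90.6 CPM for Mef2d, with overlapping ranges for both genes. In this comparison 62.3% of 17818 genes were called. Mef2b rests on 23 to 76 UMIs per class and library. Among the repressors, Hdac9 differed by -1.21 and Hdac4, Hdac5 and Hdac7 by 0.60, 0.99 and 0.79. These genes, unlike the members, took part in the clustering, so their differences between classes are a description without a test.

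In granule progenitor-like cells, Mef2c was higher in the mutants of both alleles. It stood at 107 and 125 CPM in Insm1 controls and at 237, 302 and 314 in Insm1 mutants (log2 change 1.28, SE 0.14, edgeR FDR 3.36e-05). In Tead1/2 controls it stood at 110 and 112 CPM and in Tead1/2 mutants at 334, 439 and 324 (log2 change 1.67, SE 0.14, edgeR FDR 3.30e-06). No mutant overlapped a control. Of 15705 genes in this class, 19.1% were called in Insm1 and 20.9% in Tead1/2 mutants.

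In granule neuron-like cells the change of Mef2c was larger on the log2 scale, from a lower control level. Mef2c stood at 28.9 and 33.2 CPM in Insm1 controls and at 114, 144 and 140 in Insm1 mutants (log2 change 2.06, SE 0.13, edgeR FDR 7.50e-08). In Tead1/2 controls it stood at 34.9 and 34.2 CPM and in Tead1/2 mutants at 156, 206 and 175 (log2 change 2.34, SE 0.13, edgeR FDR 4.33e-08). No mutant overlapped a control here either. Of 14283 genes in this class, 29.5% were called in Insm1 and 26.5% in Tead1/2 mutants. The difference between the 2 classes in the size of the change was not tested.

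Of the other members, Mef2a in granule progenitor-like cells had log2 changes of 0.12 in either allele (SE 0.07, edgeR FDR 0.296 and 0.291). In granule neuron-like cells its log2 change was 0.08 (SE 0.08, edgeR FDR 0.533) in Insm1 mutants and 0.24 (SE 0.08, edgeR FDR 0.0469) in Tead1/2 mutants, a call lost under 4 other settings (log2 change 0.22 to 0.24) and without Tead1/2 control 1, control 2 or mutant 1 (0.17 to 0.32). Mef2d in granule progenitor-like cells rose by 0.23 (SE 0.07, edgeR FDR 0.0293) in Insm1 mutants, but that call was lost in 4 other settings (log2 change 0.20 to 0.22, edgeR FDR 0.0643 to 0.144) and without Insm1 control 1, control 2 or mutant 2 (0.17 to 0.29). Mef2d had a log2 change of -0.06 (edgeR FDR 0.605) there in Tead1/2 mutants. Mef2d in granule neuron-like cells had log2 changes of 0.04 (edgeR FDR 0.771) and -0.17 (edgeR FDR 0.111). Mef2b in granule progenitor-like cells rose by 0.87 (SE 0.23, edgeR FDR 0.0152) in Tead1/2 mutants, on 49 to 76 UMIs per library, a call lost without cluster 6 (log2 change 0.46, edgeR FDR 0.395). The other 3 tests of Mef2b in the granule classes did not pass (edgeR FDR 0.307 to 0.989).

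Muscle marker transcripts were also higher in the mutant cells of these classes. The 17 markers summed to 71.9 to 94.8 CPM in control granule progenitor-like cells, 230 to 296 in Insm1 mutants and 314 to 580 in Tead1/2 mutants. They summed in granule neuron-like cells to 67.0 to 104 in controls, 158 to 191 in Insm1 mutants and 235 to 547 in Tead1/2 mutants. They were also higher in mutant microglia-like cells (321 to 1557, against 70.4 to 123 in controls), outside the lineage of the Cre. The following restrictions were chosen after seeing the data. When the sums were restricted to cells with no UMI of the 17 markers, Mef2c remained called by edgeR in all 4 comparisons. Its log2 change was then 0.93 (SE 0.18, edgeR FDR 0.00179) and 1.23 (SE 0.18, edgeR FDR 0.000155) in granule progenitor-like cells of Insm1 and Tead1/2 mutants. In granule neuron-like cells it was 1.75 (SE 0.15, edgeR FDR 5.56e-08) and 2.13 (SE 0.16, edgeR FDR 1.29e-08). These cells made up 55.0% to 62.7% of the granule progenitor-like class in controls and 14.1% to 36.6% in mutants. Of the granule neuron-like class they made up 62.9% to 75.3% in controls and 18.6% to 50.8% in mutants. Their median depth was under that of the whole class in every library. Cluster 6, described next, was not left out by this restriction.

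The clusters that make up each class differed between genotypes, and so did Mef2c between clusters. Clusters 8, 9 and 12 held nearly all control granule progenitor-like cells, and clusters 6 and 13 held 45.9% and 29.1% of those of mutants, against 0.00829% and 0.332% of those of controls. Cluster 15 held 73.7% of mutant granule neuron-like cells and 3.11% of those of controls, which lay mainly in clusters 10 and 11. Clusters 6, 13 and 15 were named by 6, 9 and 7 markers, none of them among their top 10 genes. Without cluster 6, the cluster of this class with under 1% control cells, Mef2c in granule progenitor-like cells was no longer called. Its log2 change was then 0.68 (SE 0.24, edgeR FDR 0.0722) in Insm1 and 0.27 (SE 0.24, edgeR FDR 0.573) in Tead1/2 mutants.

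In the 5 clusters that held most control granule-like cells (8, 9, 12, 10 and 11), the Mef2c medians of mutants were not above those of controls. In cluster 8 its median over libraries was 111 CPM in controls (109 to 121) and 79.2 in mutants (43.1 to 111). In cluster 10, of the neuron-like class, it was 33.7 in controls (28.6 to 35.0) and 25.8 in mutants (15.3 to 71.0). Clusters 9, 11 and 12 likewise had overlapping ranges of Mef2c, while their summed muscle markers had mutant medians of 222, 175 and 236 against control medians of 88.2, 77.2 and 83.4.

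The mutant-rich clusters had higher Mef2c. In cluster 6 it stood at 501 CPM in mutants (442 to 555), and in cluster 13 at 223 (218 to 418), against 155 in the 1 control library with enough cells. In cluster 15 it stood at 195 in mutants (138 to 250) and at 46.7 in controls (34.9 to 60.1), and these ranges do not overlap. Myod1, the gene of the early myogenic factor MyoD, had mutant medians of 22.5 in cluster 6, 27.7 in cluster 13 and 6.09 in cluster 15, and control medians of 0 to 2.03 in the 7 granule-like clusters that had a control value.

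**Figure D3:**
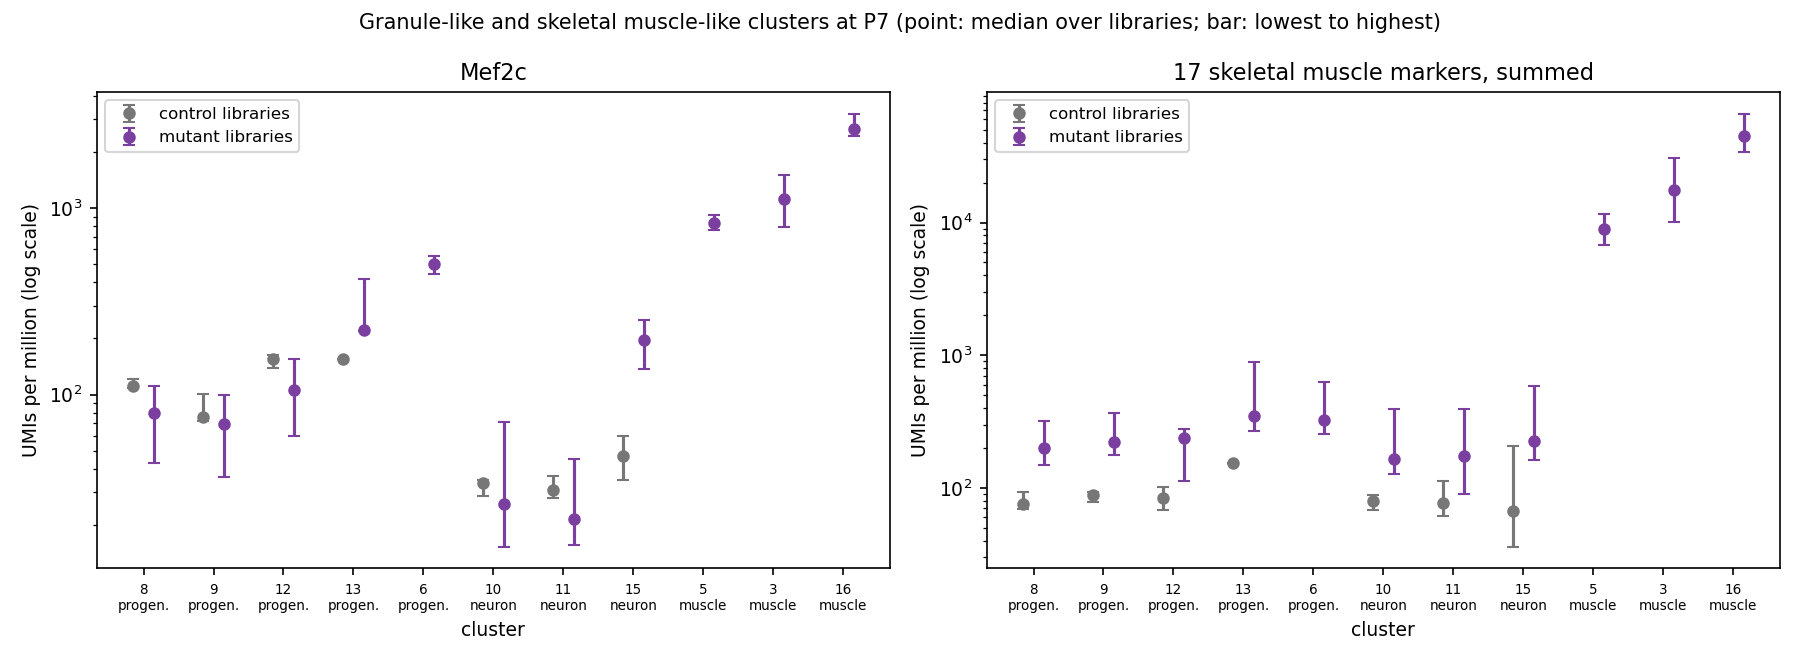
Mef2c (left) and the sum of 17 skeletal muscle markers (right) in CPM (y axes, log scale) in granule-like and skeletal muscle-like clusters at P7 (x axis); points are medians over the control or mutant libraries with enough cells and bars run from the lowest to the highest library. In clusters 8, 9, 12, 10 and 11 the Mef2c ranges overlap while the muscle marker medians are higher in mutants, and in cluster 6 Mef2c is 501 at a muscle marker sum of 326.

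Skeletal muscle-like cells of the mutants had more Mef2c than the granule-like classes. Against granule neuron-like cells of the same libraries, the log2 difference of Mef2c was 2.89 (SE 0.12, edgeR FDR 1.53e-14) in Insm1 mutants and 3.37 (SE 0.12, edgeR FDR 8.26e-16) in Tead1/2 mutants. In Insm1 mutants Mef2c stood at 1240, 1195 and 1124 CPM in skeletal muscle-like cells, and in Tead1/2 mutants at 2309, 1864 and 2121. Every library was thus above 1000, against 114 to 206 in granule neuron-like cells of the same libraries. The background was 59.6% of 17818 genes called in Insm1 and 66.6% in Tead1/2 mutants.

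Mef2a was higher in the skeletal muscle-like cells by 0.55 (SE 0.05, edgeR FDR 4.09e-09) in Insm1 and 1.14 (SE 0.05, edgeR FDR 2.36e-14) in Tead1/2 mutants. It stood at 552, 540 and 497 CPM in Insm1 and at 810, 628 and 652 in Tead1/2 mutants. Mef2d was higher by 0.35 (SE 0.05, edgeR FDR 3.09e-06) and 0.63 (SE 0.05, edgeR FDR 6.67e-10), at 144, 148 and 136 CPM in Insm1 and 169, 163 and 178 in Tead1/2 mutants. Mef2b did not pass, with log2 differences of 0.04 (SE 0.19, edgeR FDR 0.883) and -0.12 (SE 0.19, edgeR FDR 0.601), on 129 to 493 UMIs per library in the skeletal muscle-like cells. Mef2c thus had the largest log2 difference of the 4 members in either allele.

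The step from granule neuron-like to skeletal muscle-like cells was larger in Tead1/2 than in Insm1 mutants for 3 members. The difference of the log2 differences was 0.59 for Mef2a (SE 0.07, edgeR FDR 4.66e-06), 0.49 for Mef2c (SE 0.16, edgeR FDR 0.0375), 0.28 for Mef2d (SE 0.07, edgeR FDR 0.00853) and -0.16 for Mef2b (SE 0.27, edgeR FDR 0.760). The background was 18.3% of 17818 genes. The summed muscle markers of the skeletal muscle-like cells also differed, at 13378 to 17918 CPM in Insm1 and 33306 to 47746 in Tead1/2 mutants. With skeletal muscle markers also left out of the clustering the difference for Mef2c was 0.13 (edgeR FDR 0.644), and its call was lost in 4 of 6 fits without 1 library (0.31 to 0.45). That of Mef2d was lost without Insm1 mutant 3 (0.25). With Scrublet's own doublet threshold the differences were 0.54 (SE 0.29, edgeR FDR 0.405) for Mef2a, 0.43 (SE 0.35, edgeR FDR 0.612) for Mef2c and 0.11 (SE 0.27, edgeR FDR 0.915) for Mef2d. That threshold removed almost no cells of Insm1 mutant 1 and Tead1/2 mutant 1 and 36.4% to 55.3% of those of the other mutants.

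The clusters that make up the skeletal muscle-like class also differed between the alleles. Cluster 16 had the highest Mef2c of the class. It held 24.9%, 28.6% and 16.4% of the class in the 3 Insm1 mutants and 47.9%, 39.3% and 41.0% in the 3 Tead1/2 mutants. Cluster 3 held 25.6% to 44.7% and 15.9% to 23.8%, and cluster 5 held 38.9% to 48.6% and 36.2% to 42.3%. Their depths were unlike, with medians of 50268 UMIs per cell in cluster 3, 22096 in cluster 16 and 6688 in cluster 5. Within cluster 16 Mef2c stood at 2419 to 2610 CPM in Insm1 and 2706 to 3203 CPM in Tead1/2 mutants. Within cluster 3 it stood at 786 to 886 and 1342 to 1509 CPM, and neither pair of ranges overlaps. Mef2a stood at 672 to 703 and 719 to 912 CPM in cluster 16 and at 421 to 453 and 473 to 611 CPM in cluster 3, also without overlap. Mef2d stood at 119 to 122 and 135 to 141 CPM in cluster 3, without overlap, and at 169 to 176 and 176 to 193 CPM in cluster 16, where the ranges meet. Within cluster 5 the ranges of Mef2c (762 to 850 and 820 to 911 CPM), Mef2a (729 to 796 and 668 to 945 CPM) and Mef2d (201 to 217 and 209 to 215 CPM) overlap. The summed markers were higher in Tead1/2 mutants in each of the 3 clusters. These are values of single clusters with no test, and the part of cluster shares in the difference between alleles was not tested.

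Mef2c and the muscle markers did not rise in one ratio over cell classes. In skeletal muscle-like cells there were 75.8 Mef2c UMIs per 1000 muscle marker UMIs in Insm1 and 53.2 in Tead1/2 mutants. In GABAergic interneuron-like cells the rise of Mef2c over controls was 158 and 101 UMIs per 1000 UMIs of rise in the muscle markers, and in ependyma and choroid-like cells 59.8 and 56.0. In granule progenitor-like cells the same ratio was 935 and 721, and in granule neuron-like cells 998 and 552. These ratios are a description of summed libraries, with no test. The GABAergic interneuron-like class made up 6.05% to 8.60% of control and 12.3% to 15.7% of mutant libraries, and its clusters differed. These shares depend on the naming of clusters. Unnamed cluster 14, with 4050 cells, mainly of controls, had Pax2, Slc6a5 and Lhx5 among its top genes, and so did cluster 18 of this class. The median depths of clusters 14 and 18 were 19460 and 18756 UMIs, against 6063 and 5374.5 in clusters 17 and 21. Cluster 14, with Mef2c at 72.4 CPM over all its cells, is not in the control level of this class. The part of this in the ratios was not tested. With muscle markers left out of the clustering the class made up 5.92% to 8.40% of control and 7.24% to 10.9% of mutant libraries. In cluster 18, with no control library of enough cells, Mef2c had a mutant median of 299 at a marker sum of 2163. In clusters 17 and 21 it was 44.9 and 30.6 at marker sums of 204 and 198, against control medians of 19.7 and 19.8 of Mef2c. The ranges of Mef2c do not overlap in cluster 17 (16.1 to 27.4 in controls, 36.8 to 54.0 in mutants) and overlap in cluster 21.

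The 3 skeletal muscle-like clusters differed in the members. Of these, cluster 16 had the highest Mef2c, at 2658 CPM (2419 to 3203) with the summed markers at 45223. In cluster 3 Mef2c stood at 1114 (786 to 1509) and in cluster 5 at 835 (762 to 911), with marker sums of 17592 and 8887. Mef2a stood at 740 in cluster 5 and 711 in cluster 16, with overlapping ranges, and at 463 in cluster 3. Mef2d stood at 211 in cluster 5, 176 in cluster 16 and 129 in cluster 3. Myog had medians of 422, 129 and 95.1 in clusters 5, 16 and 3. Each cluster took 23.9% to 40.4% of the mutant skeletal muscle-like cells. Unnamed cluster 32, with all 17 muscle markers, had more Mef2c (mutant median 3336) and is not part of the class.

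**Figure D4:**
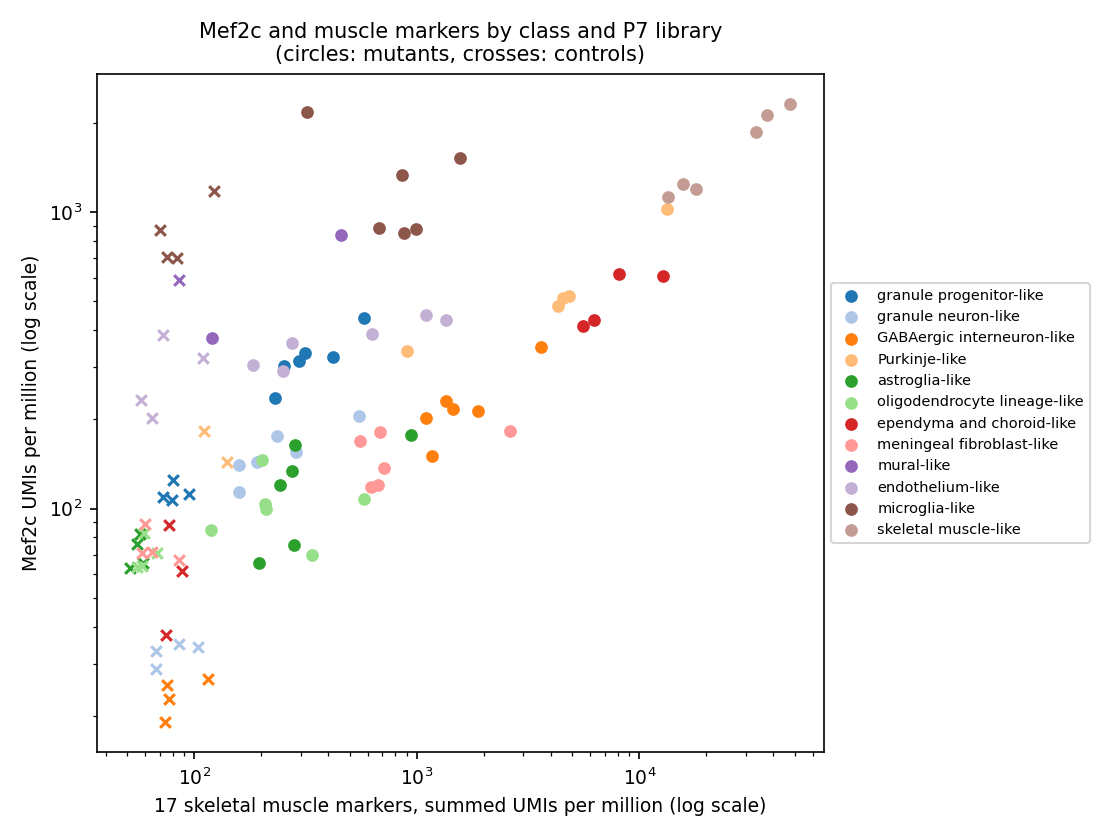
Mef2c (y axis) against the sum of 17 skeletal muscle markers (x axis), both in CPM on log scales; each point is one class in one P7 library, circles for mutants and crosses for controls. Skeletal muscle-like sums lie at 1124 to 2309 of Mef2c above 10000 marker UMIs, while granule progenitor-like mutants reach 237 to 439 of Mef2c at 230 to 580 marker UMIs.

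Of the 4 myogenic bHLH partners 2 were tested in granule progenitor-like cells, Myod1 and Myog, and both were higher in mutants than in controls. The others were under the low-count filter there. Myog in controls and Myod1 in Tead1/2 controls lay near the floor and could hardly fall. Both genes are muscle markers that were not left out of the clustering, so they had a part in which cells entered the class. Myod1 in granule progenitor-like cells stood at 3.03 and 3.67 CPM in Insm1 controls and at 23.0, 24.9 and 27.8 in Insm1 mutants (log2 change 2.90, SE 0.28, edgeR FDR 1.22e-05). Myod1 stood in Tead1/2 controls at 0.503 and 0.501 CPM and in Tead1/2 mutants at 10.2, 20.9 and 22.2. Myod1 in skeletal muscle-like cells stood at 19.0 to 23.1 CPM in Insm1 and 21.8 to 25.0 in Tead1/2 mutants, which overlaps the granule progenitor-like cells of the same genotype. Myog in the granule progenitor-like class stood at 0.428 to 0.751 in controls, 10.9 to 14.4 in Insm1 mutants and 3.50 to 14.0 in Tead1/2 mutants. In skeletal muscle-like cells of mutants Myog stood at 119 to 210. Myog is among the markers that named the skeletal muscle-like cells, so its higher level there is a description.

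Among the repressors of MEF2, Hdac9 and Hdac4 moved in opposite directions in mutant granule progenitor-like cells. Here and below, list genes in the granule classes were not tested without the mutant-rich clusters described above. These genes were also not left out of the clustering. Hdac9 stood at 400 to 431 CPM in the 4 controls, 273 to 324 in Insm1 mutants and 299 to 355 in Tead1/2 mutants. It fell by 0.50 (SE 0.09, edgeR FDR 0.00131) and 0.42 (SE 0.09, edgeR FDR 0.00432) on the log2 scale. Hdac4 rose by 0.24 (SE 0.07, edgeR FDR 0.0216) and 0.26 (SE 0.07, edgeR FDR 0.0137). In granule neuron-like cells Hdac4 rose by 0.25 and 0.28 and Cabin1 by 0.50 and 0.36, while Hdac5 fell by 0.62 (SE 0.15, edgeR FDR 0.00558) and 0.66 (SE 0.15, edgeR FDR 0.00477). Hdac5 in granule neuron-like cells stood at 29.5 to 53.0 CPM in controls, 21.1 to 27.3 in Insm1 mutants and 29.2 to 31.0 in Tead1/2 mutants. Of the 5 repressors, 1 rose and 1 fell in Insm1 and 1 rose and 2 fell in Tead1/2 granule progenitor-like cells, and 2 rose and 1 fell in granule neuron-like cells of each allele. Over all genes 19.1% and 20.9% were called in granule progenitor-like and 29.5% and 26.5% in granule neuron-like cells, and 5 genes are too few to set against these shares. Their median log2 changes lay between -0.21 and 0.08. In skeletal muscle-like against granule neuron-like cells Hdac9 was higher by 1.36 and 1.16 and Hdac4 lower (-0.35 and -0.23), as a description.

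The calcium and MAP kinase inputs went in both directions in the granule classes, at shares called near those of all genes in 3 of 4 comparisons. In granule progenitor-like cells 1 of 20 rose in Insm1 mutants, where 19.1% of all genes were called, and 2 rose and 3 fell in Tead1/2 mutants, where 20.9% were called. Of 19 tested in granule neuron-like cells 3 rose and 1 fell in Insm1 mutants (29.5% of all genes called), and 4 rose and 1 fell in Tead1/2 mutants (26.5%). Camk4, the gene of a CaM kinase of granule neurons, stood at 287 and 270 CPM in granule neuron-like cells of Insm1 controls and at 559, 494 and 479 in those of Insm1 mutants. In Tead1/2 libraries it stood at 181 and 200 in controls and 406, 411 and 322 in mutants. Camk4 rose there by 0.84 (SE 0.12, edgeR FDR 8.90e-05) and 0.96 (SE 0.12, edgeR FDR 3.78e-05) on the log2 scale. Prkd1, the gene of protein kinase D1, which phosphorylates class IIa histone deacetylases, rose by 1.43 (SE 0.13, edgeR FDR 1.96e-06) and 0.76 (SE 0.13, edgeR FDR 0.000735) in granule neuron-like cells, and fell by 0.93 (SE 0.09, edgeR FDR 7.59e-06) in granule progenitor-like cells of Tead1/2 mutants. No coactivator was called in granule progenitor-like cells of either allele, and in granule neuron-like cells 1 of 6, Ncoa2, fell by 0.21 (SE 0.07, edgeR FDR 0.0378) in Tead1/2 mutants. In skeletal muscle-like against granule neuron-like cells Camk4 was lower (-2.18 and -3.40) and Mapk12, the gene of the muscle-enriched p38 gamma kinase, higher (2.53 and 2.82), as a description.

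The muscle targets of MEF2 were all higher in skeletal muscle-like than in granule neuron-like cells, 15 of 15 in either allele. Their median log2 difference was 5.27 in Insm1 and 5.82 in Tead1/2 mutants, against 0.05 and 0.09 over all genes tested. Des, which encodes the intermediate filament desmin, differed by 6.54 (SE 0.18) and 7.05 (SE 0.16), and Smyd1 by 4.90 (SE 0.11) and 5.86 (SE 0.12). Muscle markers, Myog among them, named these cells, so the differences are a description. Within granule progenitor-like cells, 3 of 8 tested muscle targets rose in Insm1 mutants (Myog, Stac3 and Ppargc1a) and 4 of 8 in Tead1/2 mutants (Myog, Stac3, Des and Hrc), and 0 fell. By sign 7 of the 8 were higher and 1 lower in either allele. Targets near the floor in controls, such as Myog, could hardly fall. The median log2 changes were 0.49 and 0.71, against 0.0042 and 0.0050 over all genes tested. Within granule neuron-like cells 2 of 9 rose in Insm1 and 3 of 9 in Tead1/2 mutants, at medians of 0.48 and 0.85. These counts lie near the 29.5% and 26.5% of all genes called there, and those in granule progenitor-like cells stand beside 19.1% and 20.9%. The summed muscle markers that moved with them are given above, and their part in these counts was not tested.

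The neuronal targets of MEF2 went in both directions. In skeletal muscle-like against granule neuron-like cells 4 of 12 were higher and 8 lower in Insm1 mutants, and 7 higher and 5 lower in Tead1/2 mutants, at medians of -0.18 and 0.14. Pcdh10, a protocadherin gene, was higher by 1.57 and 1.26, and Kcna1, a potassium channel gene, was lower (-2.80 and -3.37). Lgi1, which encodes a secreted protein of synapses, stood in granule neuron-like cells at 0.658 to 1.53 CPM in controls, 6.98 to 8.98 in Insm1 mutants and 5.87 to 9.20 in Tead1/2 mutants. Lgi1 rose by 2.40 (SE 0.27, edgeR FDR 1.40e-05) and 3.04 (SE 0.32, edgeR FDR 9.69e-06) on the log2 scale, and it stood at 22.9 to 28.8 in skeletal muscle-like cells. Pcdh10 in granule progenitor-like cells stood at 16.6 to 19.4 in controls, 11.2 to 12.5 in Insm1 mutants and 12.6 to 14.1 in Tead1/2 mutants, and fell by 0.70 (SE 0.10, edgeR FDR 0.000245) and 0.38 (SE 0.10, edgeR FDR 0.0128) on the log2 scale. Cited2, a transcriptional coregulator gene, fell in both granule classes of both alleles, by 0.51 to 0.94. Of 11 tested neuronal targets, 1 rose and 4 fell in Insm1 and 1 rose and 2 fell in Tead1/2 granule progenitor-like cells. Of the 11, 2 rose and 2 fell in Insm1 and 1 rose and 3 fell in Tead1/2 granule neuron-like cells. The shares over all genes were 19.1% and 20.9% in granule progenitor-like and 29.5% and 26.5% in granule neuron-like cells, and a list of 11 genes is too short to set apart from them. The 4 median log2 changes lay between -0.28 and -0.06, against -0.0074 to 0.0050 over all genes tested.

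SRF and its cofactors, which share muscle targets with MEF2, were a list of 4 genes. None was called by edgeR at P2 in either allele, with or without the library labelled Tead1/2 mutant 4. In each of these 3 fits 1 had an unadjusted p under 0.05 (9%, 20% and 20.5% of all genes). Myocd, the gene of the SRF cofactor myocardin, stood at 2.13 to 2.96 CPM in granule progenitor-like cells of controls, 15.2 to 18.6 in Insm1 mutants and 16.6 to 20.8 in Tead1/2 mutants. It rose there by 2.55 (SE 0.16, edgeR FDR 3.01e-07) and 3.00 (SE 0.15, edgeR FDR 5.70e-08) on the log2 scale. In this class Srf also rose in Insm1 mutants, by 0.64 (SE 0.10, edgeR FDR 0.000657). Myocd rose in granule neuron-like cells by 0.98 (SE 0.33, edgeR FDR 0.0363) and 1.45 (SE 0.37, edgeR FDR 0.00942). Of the 4 genes, 2 rose and 1 fell in Insm1 and 1 rose in Tead1/2 granule progenitor-like cells, and 2 rose and 1 fell and 1 rose and 1 fell in granule neuron-like cells. Over all genes 19.1% and 20.9% were called in the first class and 29.5% and 26.5% in the second, and 4 genes are too few to set against these shares.

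**Figure D5:**
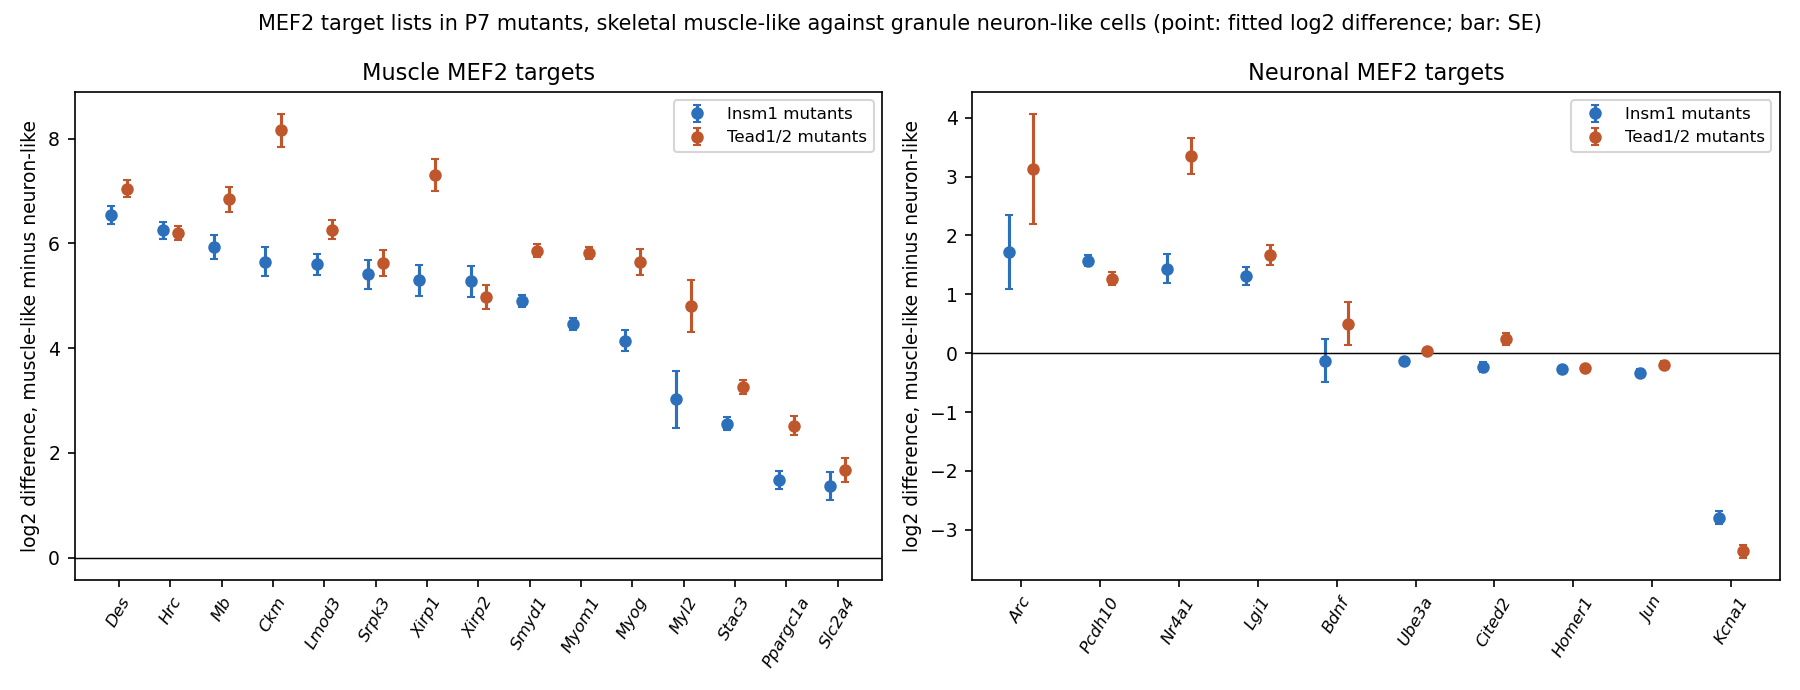
Fitted log2 difference between skeletal muscle-like and granule neuron-like cells of P7 mutants (y axes) for the muscle targets (left) and 10 of the 12 neuronal targets (right) of MEF2, gene by gene (x axes); points are the 2 alleles and bars the SE. All 15 muscle targets lie above 0, and the neuronal targets shown run from above 0 for Pcdh10, Lgi1, Nr4a1 and Arc to below 0 for Kcna1, Homer1 and Jun.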

How the data were processed

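Bulk RNA-seq of P2 cerebella and split-pool single-cell RNA-seq of P7 cerebella were used, and the ATAC-seq and CUT&RUN samples of the series were not analysed here. The deposited bulk tables hold expected counts per gene, estimated by the authors. RSEM 1.3.3, STAR 2.7.9a and Trim Galore are named in the submitters' processing notes. GRCm38.p6 and mm10 are the builds named there, and which was used where is not given in the sources used here. P7 matrices hold counts of UMIs per gene and cell, deposited by the authors for 10 libraries under 1 sample, and their gene tables name GRCm39. Library groups were taken from the column and library names that the labels give. The names of the 2 bulk tables are swapped relative to the labels, so that the table named for each allele holds the columns the labels assign to the other, and the columns were followed. All groups were of separate pups or cerebella. The submitters' labels put the Insm1 bulk, the Tead1/2 bulk and the single-cell libraries in separate batches, so alleles at P2 cannot be told apart from batch and were set against their own controls.

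For P2, 92 spike-in entries were left out, expected counts were rounded, and edgeR 4.0.16 (R 4.3.3) was run with TMM scaling, its default low-count filter and the quasi-likelihood test, with a call at an FDR (Benjamini-Hochberg) under 0.05. CPM values are scaled by TMM. For P7, cells with at least 1000 UMIs and 500 genes and under 15% mitochondrial UMIs were kept, and the highest 4% of Scrublet scores per library were removed as doublets, because Scrublet's own threshold marked 33.2% of 79838 cells. By library that share ran from 0% to 55.3%. Cells were clustered with scanpy 1.11.5 (2000 variable genes without the 4 members, 30 components, 15 neighbours, Leiden resolution 1). A cluster was named where at least 3 fixed markers of a class exceeded 1.5 times their mean over clusters and 10% of cells. It stayed unnamed where classes tied in markers or where its top 10 genes by fold held more markers of another class, which left 4 clusters unnamed. Raw counts were summed per library and class of at least 20 cells and fitted in edgeR, over the 4 groups for genotype and with library as a block between classes. Fitted changes include TMM factors, which differ between classes, and are not the plain ratio of the levels. No interval was given for single values, since each group had replicates.

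The rule for named genes took the 4 members in every comparison and, of each list, called genes with the smallest FDR, up to 4 per direction, plus the myogenic bHLH partners and class IIa histone deacetylases. Not every gene it allows is named, and those left out were chosen with values known. Like genes are the 5 with the highest Pearson r of log2 CPM (prior count 2) over sums of at least 50 cells, leaving out genes with a mean under 10 CPM. The members and lists were chosen with earlier results of these data known. The fits were tested on simulated data. DESeq2 1.42.0, other scaling, no low-count filter, replicate blocks, other doublet and clustering choices and leaving out each library were tried. Samples of the same number did not deviate together (correlations -0.131 to 0.227 at P2 and -0.126 to 0.0181 at P7), so numbers were not taken to pair samples. P-values measure the spread between these samples. The values of 2 neuronal targets are not reported here singly, and they are part of the list's counts and medians.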

Additional observations from a re-analysis of the deposited data

Results flagged for a closer look

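At P2, 33 groups of 4 values were examined for a sample far from the others, and 7 stood apart. The rule marks about 1 in 20 groups of normally distributed values. That rate does not hold for counts at the floor, such as Lmod3 and Ckm in Insm1 controls, so the 7 groups are not set against it. Mef2c in Insm1 control 3 was 59.3 CPM, against 55.6 to 56.0 CPM in the other controls. Among the muscle genes, Ckm was 0 CPM in Insm1 control 1 and 1.32 CPM in Insm1 mutant 1, Hrc was 0.466 CPM in Insm1 mutant 3, Lmod3 was 0.0268 CPM in Insm1 control 2 and Myog was 3.92 CPM in Insm1 control 2. The summed skeletal muscle markers were 183 CPM in Insm1 mutant 3, under the other Insm1 mutants.

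At P7 the difference between skeletal muscle-like and granule neuron-like cells was tested between the alleles. It was larger in Tead1/2 than in Insm1 mutants on the log2 scale by 0.59 for Mef2a, 0.49 for Mef2c and 0.28 for Mef2d (edgeR FDR 4.66e-06, 0.0375 and 0.00853). With Scrublet's own doublet threshold none of these calls was kept (0.54, 0.43 and 0.11), and Mef2c was 0.13 with muscle markers left out of the clustering. That threshold filtered libraries of the same group unlike. It marked 0% of cells in Insm1 mutant 1 and 0.0133% in Tead1/2 mutant 1, but 36.4% to 55.3% in the other mutants. The shares of the muscle-like clusters differed between the alleles as well.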

How the results depend on the processing

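At P2, the 135 genes called in Insm1 mutants became 307 with DESeq2, 212 without the low-count filter and 64 to 132 without 1 library. The Tead1/2 count of 0 became 1005 with DESeq2, 1287 without the filter and 0 to 646 without 1 library, and the difference count of 0 became 14, 11 and 0 to 8. Mef2c in Tead1/2 mutants was called without the filter (log2 change 0.27, edgeR FDR 0.0408), and in Insm1 mutants it ran from 0.35 to 0.39 without 1 library, with 5 of 8 calls lost. Without 1 library Mef2a ran from -0.015 to 0.087 in Insm1 mutants and from -0.027 to 0.086 in Tead1/2 mutants. The difference between the effects then ran from -0.049 to 0.065 for Mef2a, from -0.23 to 0.015 for Mef2c and from -0.0069 to 0.24 for Mef2d.

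The data did not pair samples that share a number. With the replicate number as a block, 64 genes were called in Insm1 mutants (Mef2c 0.37, edgeR FDR 0.163), 236 in Tead1/2 mutants and 0 for the difference. At P7 a replicate block for the dissection gave 7981 and 11506 calls in all cells. Without the library block the difference between alleles had 2136 calls in place of 3259, and Mef2c 0.49 (edgeR FDR 0.0689).

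At P7, Scrublet's own doublet threshold gave 5362 calls in all cells of Insm1 mutants (8088 in the main analysis), 2186 and 2330 in granule neuron-like cells (4217 and 3783) and 293 for the difference between alleles, with Mef2a at 0.54, Mef2c at 0.43 and Mef2d at 0.11. Cells with no muscle marker UMI, a restriction chosen after seeing the data, gave 1534 and 1736 calls in granule progenitor-like cells (2996 and 3278) and 2148 and 1842 in granule neuron-like cells. Leaving out cluster 6, also chosen after seeing the data, gave 1728 calls in Tead1/2 progenitor-like cells, with Mef2a at -0.056 and Mef2c at 0.27, and Mef2c at 0.68 in Insm1 mutants. Without 1 library there were 1946 to 2792 calls in Insm1 and 1936 to 3871 in Tead1/2 progenitor-like cells, and 2334 to 4124 in Tead1/2 neuron-like cells. The call of Mef2d in Insm1 progenitor-like cells was lost without the low-count filter (0.22), with muscle markers left out of the clustering (0.21), in cells with no muscle marker UMI (0.22), without cluster 6 (0.20) and without control 1, control 2 or mutant 2 (range without 1 library 0.17 to 0.29). That of Mef2a in Tead1/2 neuron-like cells was lost with DESeq2 (0.23), RLE scaling (0.24), no filter (0.22), the other clustering (0.23) and without control 1, control 2 or mutant 1 (range 0.17 to 0.32). That of Mef2c in the difference between alleles was lost with the other clustering (0.13) and in 4 of 6 cases without 1 library (range 0.31 to 0.69), and that of Mef2d without Insm1 mutant 3 (range 0.25 to 0.31). Mef2a in Insm1 progenitor-like cells was -0.013 with the other clustering. Mef2b in Insm1 neuron-like cells was 0.22 with Scrublet's threshold, 0.047 with the other clustering and -0.20 to 0.071 without 1 library, and in the Insm1 muscle-like comparison it ran from -0.040 to 0.23 without 1 library. Mef2d in Tead1/2 neuron-like cells was 0.011 in cells with no muscle marker UMI and -0.28 to -0.053 without 1 library, called without control 1 (edgeR FDR 0.0469). The causes of these changes were not tested.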

Other observations

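Outside the granule lineage, Mef2c in microglia-like cells stood at 702 and 706 CPM in Insm1 controls, 874 and 1182 in Tead1/2 controls, 883, 875 and 848 in the Insm1 mutant libraries, and 2183, 1525 and 1335 in the Tead1/2 mutant libraries. The Tead1/2 mutant libraries lay above all others, and their summed muscle markers stood at 321, 1557 and 860. The class pools clusters 22, 23 and 24, with mutant Mef2c medians of 621, 2176 and 2027 CPM, and their shares differed between libraries. Cluster 22 held 97 of 261 and 60 of 154 microglia-like cells in Tead1/2 controls. In Tead1/2 mutants it held 18 of 238, 91 of 402 and 103 of 341. The part of these shares in the class values was not tested. In unnamed cluster 32, of 797 cells with all 17 muscle markers, Mef2a stood at 1317, Mef2c at 3336 and Mef2d at 308 CPM. Cluster 32 stayed unnamed because its top 10 genes held more markers of another class than of skeletal muscle.

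Genes with levels most like each member were ranked over 92 sums of 11 classes and 9575 genes, as a description, since sums share libraries and depth. For Mef2a they were Lysmd4 (Pearson r 0.93), Tm6sf1, Rock2, Dennd2c and Vasp (0.89). For Mef2c they were Manba (0.91), Malt1, Traf3ip3, Esr1 and Efhd2 (0.87). For Mef2d they were Tmem131 (0.78), Malt1, Sh3glb1, Map7d1 and Arhgef2 (0.74). The members' own r was 0.79 for Mef2a with Mef2c and 0.71 for Mef2a with Mef2d. Mef2b was too low to rank.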
